A study of Homo sapiens with 36 samples.

Results

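To compare where cohesin and Mediator bind in non-cancerous lung cells, the Rad21 and Med1 peaks of B2B cells were set against each other. B2B (BEAS-2B) is an established, immortalized line of bronchial epithelial cells, and the samples used here carried no label of a treatment. Members were all Rad21 and Med1 peaks on chromosomes 1 to 12, outside bins of 1 Mb that hold no annotated transcription start site. They comprised 25699 Rad21 peaks and 17420 Med1 peaks, together 43119 of the 476964 peaks in the 16 lists of the series. The series measured chromatin proteins and histone marks by chromatin immunoprecipitation followed by sequencing (ChIP-seq) in A549 lung adenocarcinoma cells and in B2B cells, with 36 samples in 18 groups. Cells were cross-linked with formaldehyde, and the antibodies to Rad21, Med1 and CTCF came from Abcam, Bethyl and Santa Cruz. Each target was labelled with 2 replicates, which the authors merged before peak calling, so that each target had 1 peak list and no replicate error could be given. Intervals below are 95% intervals that cover counting error only, and read totals of the lists are not given in the sources used here.

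Rad21 is the subunit that closes the ring of cohesin, the complex that extrudes chromatin loops and halts where CTCF is bound. Med1 is a subunit of Mediator, the co-activator that bridges sequence-specific transcription factors and RNA polymerase II (pol II) at promoters and enhancers. Cohesin is therefore known both from insulators, where it sits with CTCF, and from active genes, where its loader NIPBL is found with Mediator. A peak was called promoter if its summit lay within 1 kb of a start site in GENCODE release 44 and distal otherwise. A peak was called joint if it overlapped a peak of the other list by at least 1 bp, and alone if it did not.

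The kinds of site compared are shown by sequences from hg38, each 121 bp on the plus strand and centred on a summit. They were among the highest-ranked sites of their class that held the class's word within 50 bp of the summit and overlapped no annotated exon. Capitals mark the word, which on the minus strand reads as its reverse complement. Joint regions with a CTCF peak are shown by the 12-position CTCF core CCNNNAGNNGGC, first 2 at promoters and then 2 at distal sites, named by the nearest protein-coding start:
IGFBP6, chr12:53099593-53099713: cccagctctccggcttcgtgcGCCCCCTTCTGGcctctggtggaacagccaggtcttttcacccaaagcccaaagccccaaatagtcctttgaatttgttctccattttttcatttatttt
SF3A3, chr1:37990186-37990306: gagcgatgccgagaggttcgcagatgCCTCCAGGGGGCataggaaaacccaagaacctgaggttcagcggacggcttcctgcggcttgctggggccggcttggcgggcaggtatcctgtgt
NUAK2, chr1:205301406-205301526: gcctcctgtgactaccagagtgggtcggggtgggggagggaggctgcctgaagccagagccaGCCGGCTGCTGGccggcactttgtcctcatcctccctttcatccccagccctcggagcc
LSAMP, chr3:115784588-115784708: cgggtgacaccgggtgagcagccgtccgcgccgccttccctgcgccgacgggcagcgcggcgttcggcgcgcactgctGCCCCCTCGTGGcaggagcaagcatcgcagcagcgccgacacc
Rad21 peaks alone at distal CTCF sites are shown with the same core, since they form the largest class of Rad21 peaks:
TULP4, chr6:158221011-158221131: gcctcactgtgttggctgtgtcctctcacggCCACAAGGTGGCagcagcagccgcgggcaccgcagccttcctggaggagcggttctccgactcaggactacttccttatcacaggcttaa
FGF1, chr5:142655811-142655931: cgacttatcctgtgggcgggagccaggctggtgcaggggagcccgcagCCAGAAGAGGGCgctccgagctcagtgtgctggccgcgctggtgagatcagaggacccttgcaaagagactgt
Joint regions without a CTCF peak are shown by the ETS word CCGGAAG near a start of CPT1A. At distal sites they are shown by the AP-1 word TGACTCA (or its reverse complement), 12.8 kb from HMGA1 and 125 kb from MYEOV:
CPT1A, chr11:68839386-68839506: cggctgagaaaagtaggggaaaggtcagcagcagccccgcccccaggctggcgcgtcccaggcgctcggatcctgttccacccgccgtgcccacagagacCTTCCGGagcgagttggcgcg
HMGA1, chr6:34224020-34224140: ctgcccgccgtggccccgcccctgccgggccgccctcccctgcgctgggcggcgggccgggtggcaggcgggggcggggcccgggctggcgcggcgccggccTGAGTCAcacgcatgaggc
MYEOV, chr11:69420706-69420826: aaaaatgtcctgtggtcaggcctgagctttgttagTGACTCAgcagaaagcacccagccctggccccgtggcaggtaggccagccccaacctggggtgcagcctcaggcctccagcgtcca
Med1 peaks alone at distal sites with both a CTCF and a Jun peak are shown by the AP-1 word:
ZNF354A, chr5:178786182-178786302: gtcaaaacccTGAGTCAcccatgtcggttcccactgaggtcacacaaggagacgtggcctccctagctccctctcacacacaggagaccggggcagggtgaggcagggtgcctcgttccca
RALGDS, chr9:133133846-133133966: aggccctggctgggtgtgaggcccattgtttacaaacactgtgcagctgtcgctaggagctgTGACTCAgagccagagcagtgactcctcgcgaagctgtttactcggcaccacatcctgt
The SF3A3, NUAK2, TULP4, HMGA1 and MYEOV windows lay between genes, and the IGFBP6, FGF1, CPT1A and RALGDS windows lay in introns of these genes. The LSAMP window was intronic to a non-coding gene, at 57.8 kb to the nearest LSAMP start, and the ZNF354A window in AACSP1, 55.6 kb from the nearest coding start.

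Cohesin and Mediator shared most of their promoter sites and few of their distal sites. Of the Rad21 peaks, 43.0% (42.4 to 43.6%) overlapped a Med1 peak, and of the Med1 peaks, 58.3% (57.6 to 59.0%) overlapped a Rad21 peak. At promoters, 70.9% of 12582 Rad21 peaks were joint, against 16.2% of 13117 at distal sites, a difference of 54.7 percentage points (53.7 to 55.7). Med1 peaks followed the same order, with 74.8% of 10869 joint at promoters and 30.9% of 6551 joint at distal sites, a difference of 43.9 points (42.5 to 45.3). The lists covered like amounts of the genome, 9.39 Mb for Rad21 and 9.07 Mb for Med1, with median widths of 288 and 351 bp. When 50% of both peaks had to overlap, the shares fell to 22.8% of Rad21 peaks and 33.7% of Med1 peaks. The promoter-minus-distal difference was then 29.3 points (28.4 to 30.3) for Rad21 and 27.1 points (25.8 to 28.4) for Med1. Promoter peaks were wider, with medians of 353 bp for Rad21 and 469 bp for Med1, against 253 and 252 bp at distal sites. The part of peak width in the overlap was not tested.

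CTCF divided the 2 lists in opposite ways. CTCF peaks underlay 82.6% of the distal Rad21 peaks but 34.6% of those at promoters, and they underlay 54.6% of the distal and 32.6% of the promoter Med1 peaks. Rad21 peaks without CTCF overlapped Med1 more often than those with CTCF. At distal sites 27.5% of 2282 Rad21 peaks without CTCF were joint, against 13.8% of 10835 with CTCF, a difference of 13.7 points (11.8 to 15.7). At promoters the shares were 75.4% of 8231 and 62.4% of 4351, a difference of 12.99 points (11.3 to 14.7), which fell to 1.40 points (−0.378 to 3.18) when 50% reciprocal overlap was required. The distal and the promoter difference for Rad21 were not told apart, at 0.707 points (−1.86 to 3.32).

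Among Med1 peaks the order was turned. Distal Med1 peaks with CTCF overlapped Rad21 in 41.2% of 3578 cases and those without CTCF in 18.6% of 2973, a difference of 22.6 points (20.4 to 24.7). At promoters the shares were 78.1% of 3541 and 73.2% of 7328, a difference of 4.82 points (3.10 to 6.50). This promoter order was not kept among Med1 peaks of high fold enrichment, as given below. The distal difference exceeded the promoter difference by 17.8 points (15.1 to 20.5). With CTCF assigned by a CTCF summit within 500 bp instead of by overlap, the promoter difference was −1.38 points (−3.12 to 0.346), whereas the distal difference was 19.3 points.

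**Figure D1:**
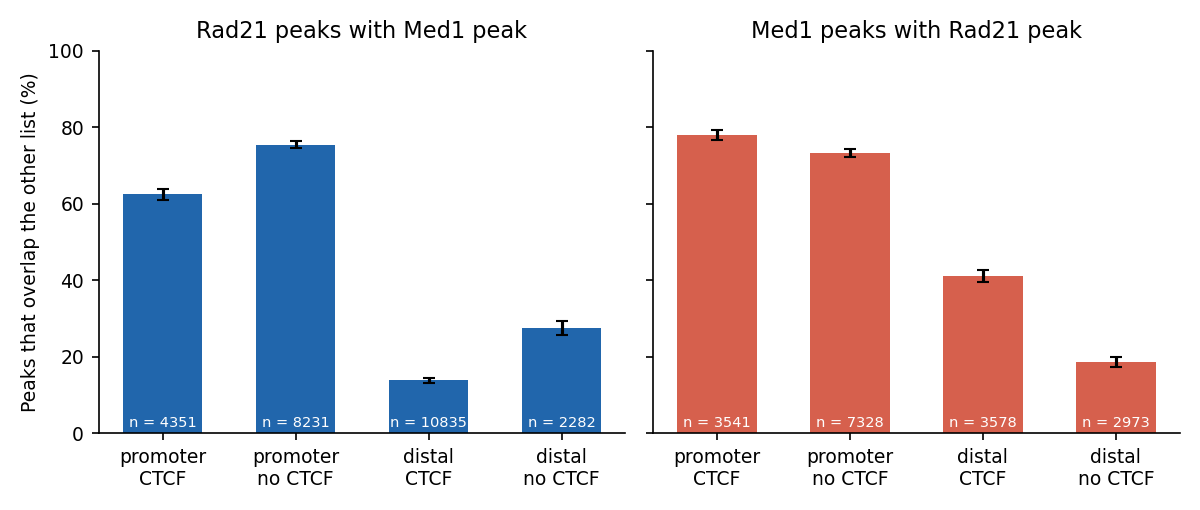
Bars give the percentage of Rad21 peaks (left) and Med1 peaks (right) that overlapped a peak of the other list, by place and by overlap with a CTCF peak, with Wilson 95% intervals and the number of peaks in each bar. Rad21 bars are higher without CTCF at both places, and Med1 bars are higher with CTCF, from 41.2% against 18.6% at distal sites to 78.1% against 73.2% at promoters.

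Merging the overlapping peaks gave 9518 joint regions, of which 7502 (78.8%, 78.0 to 79.6%) lay at promoters and 1939 (20.4%) at distal sites. In the other 77 the Rad21 summit and the Med1 summit fell on different sides of the 1 kb limit. No CTCF peak overlapped 55.2% of the joint regions (54.2 to 56.2%). Promoter regions without CTCF were the largest class, with 4736 regions, followed by 2766 promoter regions with CTCF, 1455 distal regions with CTCF and 484 distal regions without it. The strongest Rad21 and Med1 summits of a region lay a median of 81 bp apart, and 57.5% of the pairs lay within 100 bp. Distal pairs were closer, at a median of 62 bp against 86 bp at promoters. Several Rad21 peaks fell in 1 region in 16.0% of the promoter regions and in 4.80% of the distal ones.

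Around coding start sites the joint summits formed a narrow peak. Of the joint Rad21 summits, 24.7% fell in the 100 bp upstream of the nearest coding start and 17.7% in the 100 bp downstream. For joint Med1 summits these shares were 21.9% and 19.3%. Peaks alone were spread more widely, with 4.31% of the Rad21 and 5.02% of the Med1 summits in the upstream 100 bp. Within 1 kb, the median offset of joint summits was −6 bp for Rad21 and −3 bp for Med1. Of the summits with a coding start within 1 kb, a second coding gene also started within 1 kb of 15.2% of 8159 joint Rad21 summits and 5.72% of 2795 alone, whereas the shares for Med1 were 14.4% of 7433 and 15.9% of 2144.

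**Figure D2:**
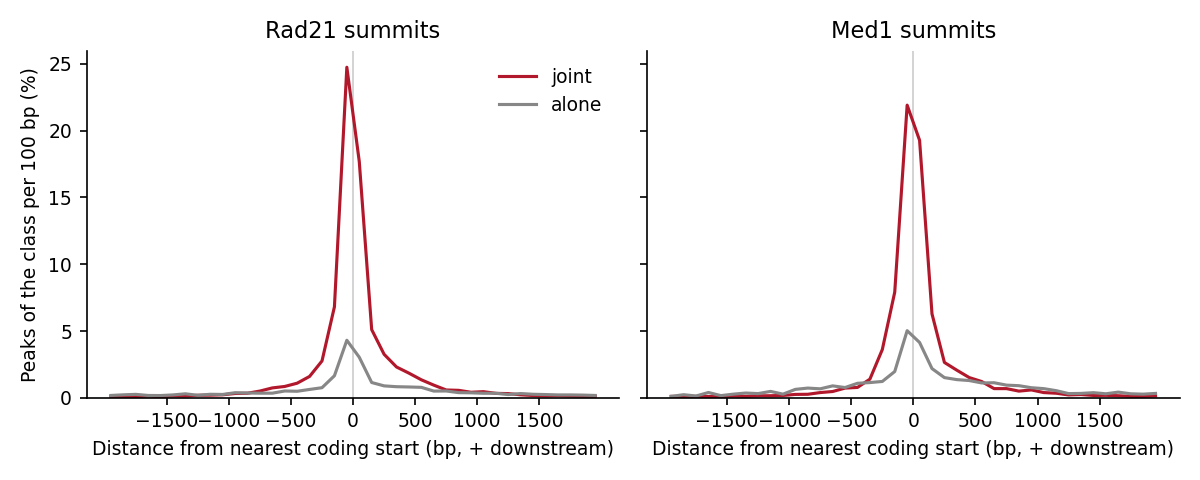
Lines give the percentage of all Rad21 summits (left) or Med1 summits (right) of a class per 100 bp, against the distance in bp from the nearest protein-coding start, positive downstream. Joint summits (red) reach 24.7% for Rad21 and 21.9% for Med1 just upstream of the start, and summits alone (grey) reach 4.31% and 5.02%.

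Over peaks with and without CTCF, joint and single Rad21 peaks differed more in reads than in fold enrichment. The deposited fold enrichment compares the reads at the summit with a local background, and both could be solved from it and from the deposited p-value. At promoters the median fold was 5.77 for joint Rad21 peaks and 5.79 for those alone, but the median pileup was 100 against 52 reads and the median background 17.0 against 9.68 reads. At distal sites the median fold was 7.62 for joint and 7.94 for single peaks, with pileups of 63 against 19 reads and backgrounds of 7.50 against 1.00 reads. Med1 behaved differently. Its fold was 7.70 for joint and 5.44 for single promoter peaks, and 6.53 against 5.62 at distal sites, over backgrounds that stayed between medians of 1.89 and 2.27 reads. The highest Rad21 pileup, 298 reads, was 2 times the narrowest Rad21 peak of 149 bp, and 766 peaks (2.98%) reached at least 90% of it. Such peaks were kept in the values below, among them those in the highest pileup quartile and at the CCNG2 and NUAK2 regions.

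The share of joint peaks followed the reads at the Rad21 summit. Between the lowest quartile group of Rad21 peaks by pileup (6 to 18 reads) and the highest (106 to 298 reads), the joint share went from 11.2% to 86.7% at promoters and from 6.17% to 42.4% at distal sites. By fold enrichment the promoter shares of the 4 quartile groups lay between 67.7% and 73.5%, but without CTCF they went from 70.5% in the lowest to 87.1% in the highest. At distal sites 30.7% of the lowest quartile group by fold were joint, against 13.5%, 13.3% and 16.3% of the others. Med1 peaks were joint more often the higher their fold, from 57.4% in the lowest to 91.3% in the highest quartile group at promoters and from 22.0% to 52.5% at distal sites. At promoters 65.8% of Med1 peaks with CTCF and 55.0% without it were joint in the lowest group by fold. In the highest group the order was opposite, at 87.9% and 94.0%. At distal sites the share was higher with CTCF in both groups, at 33.6% against 13.3% and 58.8% against 36.9%. In the highest pileup quartile, 75.4% of distal Rad21 peaks without CTCF and 37.2% of those with CTCF were joint. In the lowest quartile the order was opposite, with 1.93% of 777 without CTCF and 6.82% of 5043 with CTCF. The local background of Rad21 moved with the joint class at promoters and at distal sites, and its part in the overlap was not tested.

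**Figure D3:**
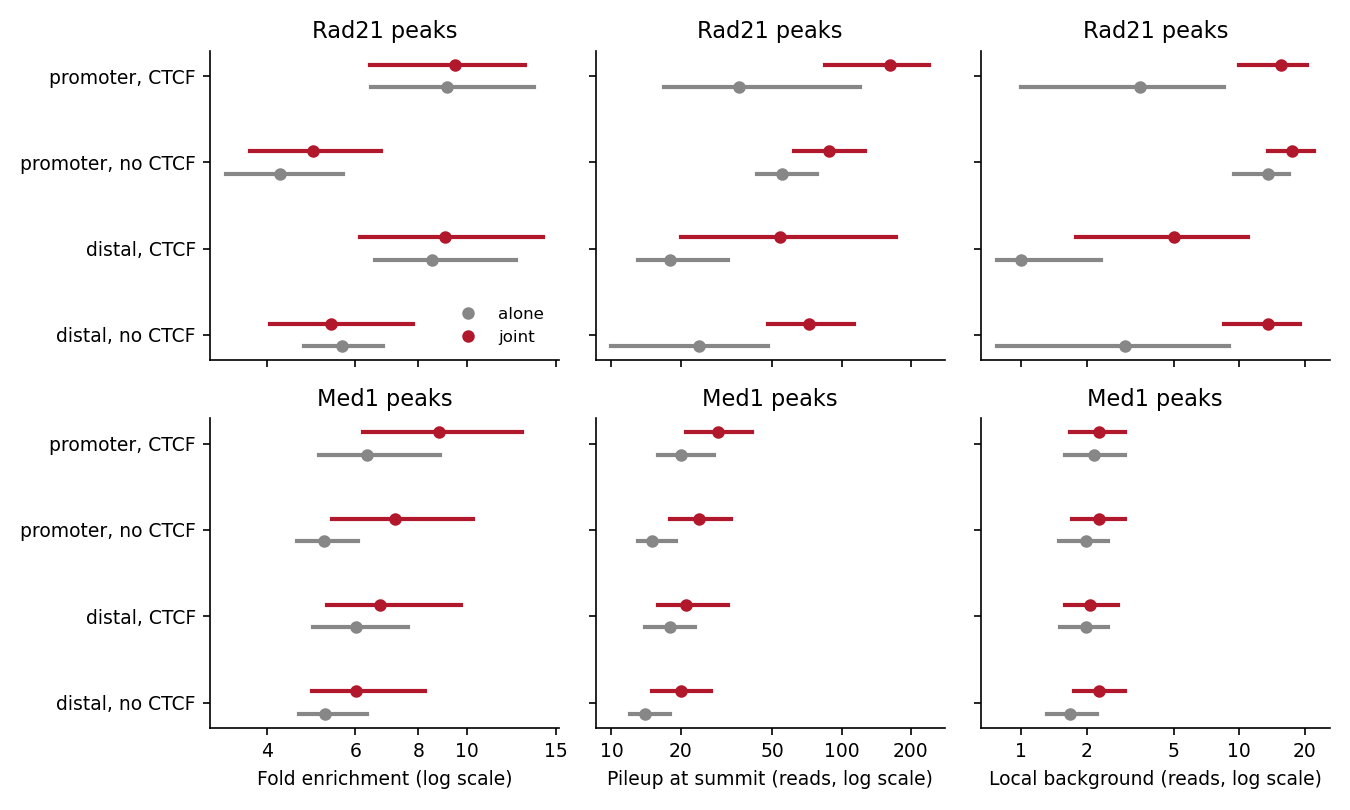
Points are medians and lines run from the first to the third quartile of fold enrichment, pileup in reads and local background in reads, on log axes, for Rad21 (top) and Med1 (bottom) peaks that were joint (red) or alone (grey). Rad21 classes differ mainly in pileup and background, for example 63 against 19 reads and 7.50 against 1.00 reads over all distal peaks, while Med1 backgrounds stay near 2 reads.

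Beneath the Rad21 peaks that overlapped a CTCF peak, the fold enrichment of CTCF was lower where a Med1 peak overlapped. The median CTCF fold enrichment under distal Rad21 peaks was 20.5 for Rad21 alone and 9.15 for joint peaks, and at promoters it was 13.1 and 5.27. Under distal Med1 peaks the CTCF fold was 7.78 for Med1 alone and 9.12 for joint peaks, and at promoters the order was opposite, at 6.27 and 5.36. These values rank sites within the 1 CTCF list and carry no replicate error. They are ratios to a local background, and the part of that background in the differences was not tested.

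At promoters, joint sites carried the marks of active genes far more often than Rad21 alone. Pol II peaks overlapped 69.0% of the joint Rad21 promoter peaks and 8.20% of those alone, a difference of 60.8 points (59.5 to 62.1). H3K27ac, a mark of active promoters and enhancers, overlapped 94.3% and 34.1%, and H3K4me3, a mark of promoters, overlapped 85.9% and 32.2%. Med1 promoter peaks differed less. H3K27ac overlapped 93.4% of the joint and 70.7% of the single Med1 peaks, and pol II overlapped 66.9% and 51.6%. Among promoter Med1 peaks with CTCF, pol II was less frequent at joint peaks (71.5%) than at Med1 alone (83.3%), a difference of −11.8 points (−14.8 to −8.54).

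Distal joint sites without CTCF stood out by H3K27ac. It overlapped 87.1% of 628 joint Rad21 peaks against 18.8% of 1654 alone, a difference of 68.3 points (64.8 to 71.3). Seen from Med1, it overlapped 85.7% of 552 joint peaks against 33.4% of 2421 alone, a difference of 52.3 points (48.6 to 55.5). With CTCF, H3K27ac overlapped 52.0% of the joint and 2.66% of the single Rad21 peaks, and 54.4% of the joint and 44.4% of the single Med1 peaks. H3K4me3 overlapped 33.9% of the distal joint Rad21 peaks without CTCF, 40.8% of them lay within 3 kb of a start site, and their median distance from one was 4.57 kb. Over all distal Med1 peaks the joint-minus-alone difference in H3K27ac was 24.5 points (21.9 to 26.96), and 22.0 points (19.1 to 24.8) once distal peaks with H3K4me3 were left out.

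Jun, the AP-1 subunit with the most peaks in B2B, split by CTCF. Among distal peaks that overlapped a CTCF peak, Jun overlapped 84.4% of 2105 Med1 peaks alone and 52.1% of 1473 joint Med1 peaks. The difference was −32.3 points (−35.2 to −29.3). Jun overlapped 51.3% of the joint Rad21 peaks and 11.7% of Rad21 alone. It was thus most frequent with Mediator alone, intermediate at joint sites and least frequent with cohesin alone. JunB followed the same order at these sites, with 42.8% of Med1 alone, 29.9% of joint Med1 peaks and 3.81% of Rad21 alone, as did JunD with 30.1%, 18.7% and 3.06%. Without CTCF, Jun overlapped 20.4% of Med1 alone, 24.1% of joint Med1 peaks and 20.3% of Rad21 alone. JunB overlapped 5.29% of Med1 alone and 4.89% of joint Med1 peaks there, a difference of −0.396 points (−2.19 to 1.89). JunD overlapped 6.28% and 0.906%, a difference of −5.37 points (−6.53 to −3.88), and for Rad21 5.74% of the peaks alone and 0.637% of the joint ones. The joint-minus-alone difference in Jun without CTCF was 3.69 points (−0.0732 to 7.74) for Med1 and 1.40 points (−2.24 to 5.27) for Rad21. The 2 strata of CTCF differed by 36.0 points (31.2 to 41.0) for Med1 and by −38.2 points (−42.7 to −33.5) for Rad21. Over both strata the Med1 difference was −5.68 points (−8.28 to −3.07), but it became 3.25 points (0.746 to 5.77) when peaks in bins without a start site were kept.

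Mediator sites shared with cohesin were also called more often in the cancer line. A Med1 peak of A549 cells overlapped 72.8% of the joint and 40.8% of the single Med1 promoter peaks of B2B, a difference of 32.0 points (29.9 to 34.1). At distal sites the shares were 36.4% and 24.1%, a difference of 12.4 points (9.96 to 14.8). Joint Med1 peaks were wider, at medians of 591 against 239.5 bp at promoters and 346 against 229 bp at distal sites. Over both places the difference was 35.2 points (33.8 to 36.6). It was 33.1 points (31.6 to 34.5) with A549 peaks sought within 250 bp of the summit. With peaks in bins without a start site kept it was 27.6 points (26.2 to 29.0). The part of peak width and height was not tested.

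**Figure D4:**
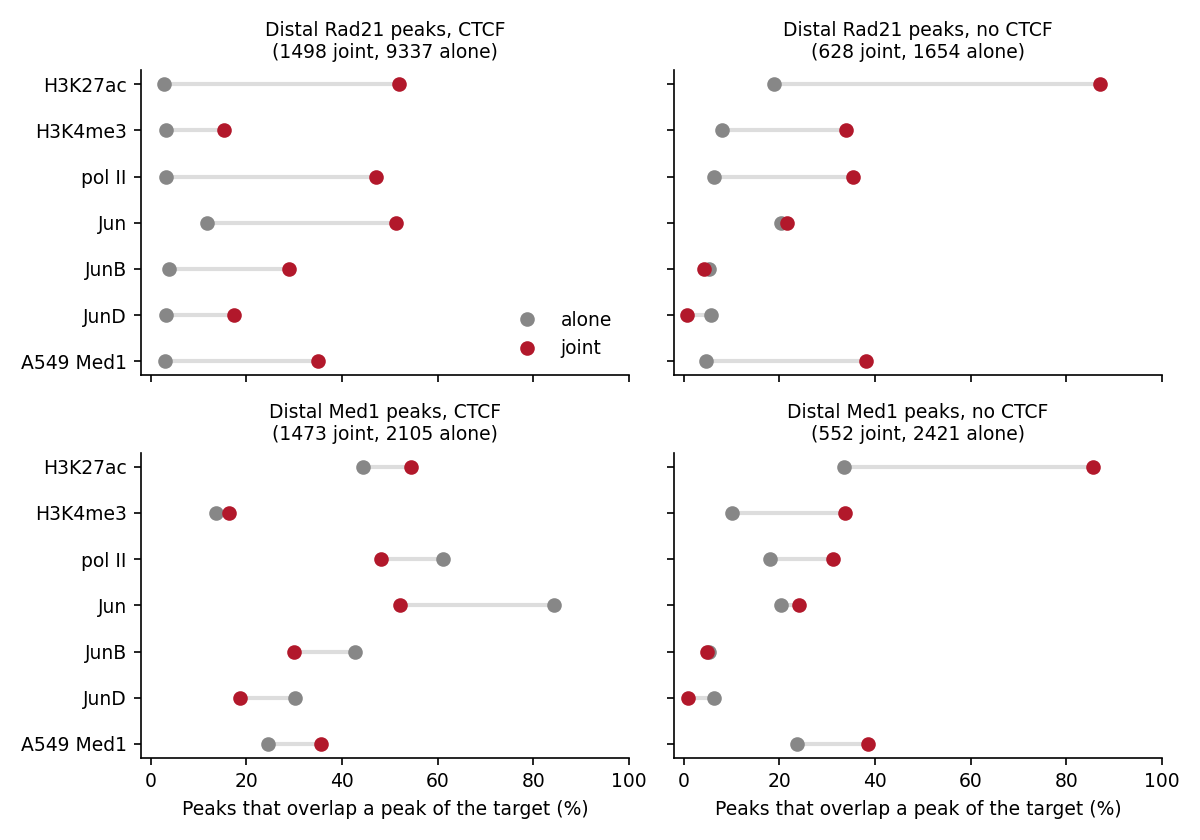
Points give the percentage of distal Rad21 (top) and Med1 (bottom) peaks that overlapped a peak of each target named on the vertical axis, for joint peaks (red) and peaks alone (grey), with CTCF (left) and without it (right). Jun at Med1 peaks with CTCF is higher alone (84.4%) than joint (52.1%), and H3K27ac without CTCF reaches 87.1% and 85.7% at joint peaks.

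The DNA beneath the summits followed the same classes. The CTCF core, searched on both strands within 50 bp of the summit, was present at 27.5% of distal CTCF-bound Rad21 peaks alone and at 22.4% of the joint ones, a difference of 5.17 points (2.82 to 7.41). Windows of the same length 2 kb to each side held it in 0.996% and 1.44%. It lay at 18.8% of all Rad21 summits and 6.04% of all Med1 summits. Among distal Med1 peaks that overlapped a CTCF peak it was found at 13.5% of the joint summits. It was found at 2.33% of the summits of Med1 alone, beside 1.02% in their flanks. The AP-1 word lay at 14.7% of those Med1 summits alone and 8.15% of the joint ones, beside 1.73% and 1.60% in the flanks. Without CTCF the order was opposite, with the AP-1 word at 4.09% (3.37 to 4.95%) of distal Med1 summits alone and 7.43% (5.52 to 9.92%) of joint ones. The flanks there held it in 1.49% and 1.27%. Over all distal Med1 peaks, which pool these opposite orders, the alone-minus-joint difference was 1.06 points (−0.428 to 2.47). TEAD partners AP-1 at many enhancers. Among distal Med1 peaks that overlapped a CTCF peak, its word GGAATG lay at 15.9% (14.4 to 17.5%) of those alone. It lay at 12.1% (10.5 to 13.8%) of the joint ones, and the flanks held it in 5.82% and 5.70%.

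At promoters without CTCF, the ETS word was found at 6.09% (5.52 to 6.71%) of the joint Rad21 summits and at 2.77% (2.14 to 3.58%) of Rad21 alone, with 0.362% and 0.494% in the flanks. Over the whole lists it lay at 2.77% of Rad21 and 3.54% of Med1 summits. Where a core lay within 100 bp, the summit sat on its 3′ side in 67.9% (66.4 to 69.5%) of the distal Rad21 peaks alone and in 66.0% (61.3 to 70.4%) of the joint ones. For joint Med1 peaks this share was 54.4% (49.0 to 59.6%). Base composition differed between most of the classes as well. In 150 bp to each side of the summit the median GC content of promoter Med1 peaks without CTCF was 70.8% for joint and 57.5% for single peaks, and of distal ones 65.8% and 52.5%. Rad21 peaks at promoters without CTCF, the class of the ETS comparison, had 71.1% for joint and 70.4% for single peaks. For distal CTCF-bound Rad21 peaks it was 59.1% for joint peaks and 42.9% for Rad21 alone. The words are descriptions of these windows, and the part of base composition in their frequency was not tested.

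Single regions were ranked by the lower of their Rad21 and Med1 percentiles of fold enrichment, and regions among the 6 highest of each of the 4 classes are named with their nearest protein-coding gene. Among promoter regions without CTCF the highest was at OTUD4, a deubiquitinase gene (chr4:145179534-145181128), with a Rad21 fold of 21.1, a Med1 fold of 19.9 and summits 768 bp apart. It was followed by UPP1, which encodes a uridine phosphorylase, with folds of 20.9 and 18.4. The TATDN3, HMGB2 and CCNG2 promoters were also in the group, with Rad21 folds between 16.9 and 19.7, and at CCNG2 the summits lay 1082 bp apart. HMGB2 encodes a chromatin protein that bends DNA, and CCNG2 encodes cyclin G2. These 5 regions overlapped pol II, H3K4me3 and H3K27ac peaks and a Med1 peak of A549, and UPP1 alone among them also overlapped Jun.

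With CTCF, the highest promoter region was at TTC7A (chr2:47033760-47035151), with folds of 25.2 for Rad21 and 22.1 for Med1. It was followed by IGFBP6, which encodes a binding protein for insulin-like growth factors (chr12:53099282-53099801). There the Rad21 summit lay in an intron with the CTCF core printed above, 729 bp from the start, and JunB, Jun and JunD peaks overlapped the region. GPRC5A, a retinoic acid-induced receptor expressed in lung epithelium, had summits 59 bp apart, a Rad21 fold of 20.7 and a Med1 fold of 29.1. The KMT2E, CALM2 and DST regions had their strongest summits 886 to 965 bp apart. KMT2E encodes a SET-domain chromatin protein, CALM2 a calmodulin and DST a linker of the cytoskeleton.

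Of the distal regions without CTCF, the highest lay 7.05 kb from a start of ZFHX4, a zinc-finger homeobox gene, with folds of 20.9 and 14.3. The ARHGEF19 region (chr1:16181746-16182508), 24.5 kb from the gene's start, had a Rad21 pileup of 236 reads and folds of 14.4 and 14.4. SKI, a co-repressor of TGF-beta signalling, was next, with summits 50 bp apart in an exon 18.7 kb from the start. The SOCS2, HMGA1 and ITPKB regions lay 12.8 to 34.4 kb from their starts, with Rad21 folds between 11.2 and 14.0. SOCS2 encodes a suppressor of cytokine signalling, HMGA1 an architectural protein that binds AT-rich DNA and ITPKB an inositol trisphosphate kinase. Pol II and H3K27ac overlapped all 6, and H3K4me3 overlapped 4 of them, namely ZFHX4, SOCS2, HMGA1 and ITPKB.

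The highest distal region with CTCF lay 826 kb from the nearest coding start, that of DIPK2A (chr3:144798962-144799704), with folds of 37.9 and 29.4. The Rad21 pileup was 66 reads over a background of 0.770 reads. This is the lowest value in the list and also the first quartile over all distal Rad21 peaks, so that many peaks share it. The 121 bp around the summit were 100% A and T, an alternation of both bases. JunB, Jun and JunD peaks and an A549 Med1 peak overlapped the region as well. FRMD4A was next (chr10:14396304-14397563), with a Rad21 fold of 40.0 and a Med1 fold of 19.8 in its intron, 64.7 kb from the start. The NUAK2 region lay 20.3 kb from this kinase gene, with a Rad21 pileup of 281 reads. DUSP1, which encodes the phosphatase that switches off MAP kinases, had a joint region 5.87 kb from its start, with a Rad21 fold of 20.7 and a Med1 fold of 36.6. The ERGIC1 and BMPER regions completed the group, with Rad21 folds of 21.5 and 19.8. ERGIC1 belongs to the early secretory pathway and BMPER binds bone morphogenetic proteins.

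Distal joint regions gathered near some genes. Without CTCF, ZMIZ1, a transcriptional co-regulator, was the nearest coding gene of 8 regions, from 1.36 to 104 kb from a start. PDGFA, a growth factor for mesenchymal cells, was nearest to 7 and the nuclear receptor RXRA to 6. CXXC5 was nearest to 5 regions. With CTCF, DNAJB12 was nearest to 7 regions, and DUSP1 to 6. The promoters of these 6 genes were joint.

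Of 12573 protein-coding genes on chromosomes 1 to 12, 6676 (53.1%) had a joint promoter, with CTCF in 20.9%. A Rad21 peak lay within 1 kb of a start of 64.3% and a Med1 peak of 58.8%. Both bound apart at 181 genes, Rad21 alone at 1222, Med1 alone at 541 and neither at 3953. A pol II summit lay within 1 kb of a start of 81.0% of the joint genes and 81.0% of the Med1-alone genes, against 12.9% of the Rad21-alone genes and 3.62% of those with neither. H3K4me3 lay at 40.3% of the Rad21-alone genes and at 6.96% of those with neither.

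The genes of the complexes themselves were joint in shares not told apart from the 53.1% of all coding genes. Of the genes of cohesin and its regulators 7 of 9 had a joint promoter (77.8%, 45.3 to 93.7%), namely STAG1, PDS5A, NIPBL, RAD21, WAPL, SMC3 and CDCA5. STAG1, RAD21 and SMC3 encode subunits of the ring, NIPBL its loader, WAPL its release factor, PDS5A a regulator and CDCA5 sororin, which protects cohesion. ESCO2, the acetyltransferase that establishes cohesion, had Med1 alone, and the meiotic subunit STAG3 had both peaks apart. Of the Mediator subunits 11 of 17 were joint (64.7%, 41.3 to 82.7%), with MED23 the highest ranked (Rad21 fold 15.6, Med1 fold 23.7). MED7, MED18, MED27 and MED28 had Med1 alone, and MED8 and MED10 had Rad21 alone.

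Beside 53.1% of all coding genes, the lists of signal response had higher joint shares. That reference includes 3953 genes with neither peak, of which 3.62% had pol II. Pol II lay at 18 of the 20 immediate early genes, 20 of the 21 YAP and TEAD targets and 261 of the 392 oncogenes below. Whether the lists differ from active genes alone was not tested. Of 20 immediate early genes 16 were joint (80%, 58.4 to 91.9%), MYC (Rad21 fold 15.1, Med1 fold 18.6), DUSP1 (14.9 and 34.2) and ATF3 (13.6 and 20.3) among the highest. JUN, EGR1 and FOSL1 had both peaks at their promoters without overlap, and EGR2 had Rad21 alone. Of 21 targets of YAP and TEAD 19 were joint (90.5%, 71.1 to 97.3%), including CCN1, CCN2, AMOTL2 and CRIM1, whereas ANKRD1 had Med1 alone and FOXF2 neither. Of 392 oncogenes listed by the study on these chromosomes, 274 (69.9%, 65.2 to 74.2%) were joint, 34 had Rad21 alone and 12 Med1 alone. NBN, FUBP1, ARID1B and NFE2L2 ranked highest among them, and NFE2L2, the regulator of the oxidative stress response, had a Rad21 fold of 16.0 and a Med1 fold of 32.8.

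Markers of cell identity were divided. Of 21 genes of epithelial keratins, junctions and adhesion 13 were joint (61.9%, 40.9 to 79.2%), near the 53.1% of all coding genes, including KRT7, KRT8, KRT18, DSP and ITGB1, the keratins of simple epithelia, desmoplakin and an integrin. EPCAM, KRT5 and TP63, defining markers of airway epithelium and its basal cells, had neither peak. Of 20 mesenchymal and matrix genes 15 were joint (75%, 53.13 to 88.8%), including VIM, FN1, ZEB1 and SNAI2. This interval begins at the 53.1% of all coding genes and overlaps that of the epithelial list. COL3A1, COL5A2 and CCN4 had neither peak, COL1A2 had Rad21 alone and ACTA2 Med1 alone. Pol II lay at 14 of these 20 genes and at 12 of the 21 epithelial ones. Whether the 2 lists differ was not tested.

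Ribosomal protein genes were all bound by Mediator but not all by cohesin. Med1 peaks lay at 45 of 45, against 58.8% of all coding genes. Pol II also lay at all 45. Rad21 peaks lay at 34, against 64.3%, and 32 (71.1%, 56.6 to 82.3%) were joint, against 53.1%. These references include 3953 genes with neither peak, of which 3.62% had pol II. They are thus no reference for active genes, and whether the list lies above or below active genes was not tested. RPL10A had the highest rank (Rad21 fold 18.5, Med1 fold 15.1), and RPL11, RPL30, RPL32 and RPS18 were among 11 genes with Med1 alone. HOX genes, which pattern the body axis, were joint in 4 of 29 (13.8%, 5.497 to 30.6%), all in the HOXC cluster (HOXC5, HOXC6, HOXC8 and HOXC9), and none of the 9 HOXD genes had either peak. Olfactory receptor genes, of which 1 had a pol II peak at a start, served as a low reference. None of 343 was joint, which allows a share of up to 0.875%, and 4 had a Rad21 and 1 a Med1 peak.

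**Figure D5:**
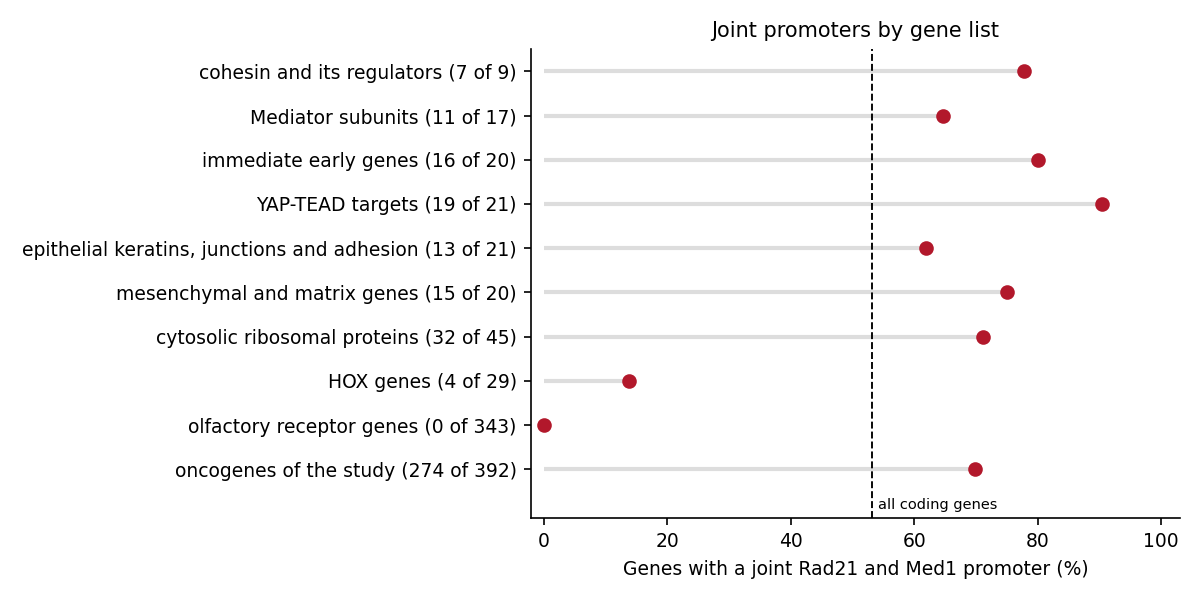
Points give the percentage of genes on chromosomes 1 to 12 in each list whose promoter held a joint Rad21 and Med1 region, with counts beside the list names and a dashed line at 53.1% for all coding genes. YAP-TEAD targets lie highest, with 19 of 21, and olfactory receptor genes lowest, with 0 of 343.

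Of 5 genes taken from the loci that the study describes on these chromosomes, which are not all of them, HSP90AB1, SDHAF2, EGFR and KLF6 were joint, and POU5F1, a pluripotency factor, had neither peak. HSP90AB1, a heat shock protein gene, had a Rad21 fold of 4.78 over a background of 22.0 reads and a Med1 fold of 18.3, with summits 50 bp apart. EGFR, the epidermal growth factor receptor, had folds of 8.87 and 11.3, with the Rad21 summit 8 bp from its start and the Med1 summit 111 bp away from it. KLF6 had folds of 8.11 and 16.1, and SDHAF2 had folds of 6.95 and 8.24. All 4 regions overlapped pol II, H3K4me3 and H3K27ac peaks and a Med1 peak of A549.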

How the data were processed

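ChIP-seq peak lists of B2B cells were analysed, with the Med1 list of A549 as a readout, 10 of the 16 lists in all. Per the submitters' processing notes and the study's methods, the authors aligned reads to hg38 with Bowtie2 2.4.4, discarded duplicate reads by a script of their own, pooled the replicates, normalized to CPM (SAMtools 1.13) and ran MACS2 2.2.7.1 as the peak caller. The caller's options and control are not given in the sources used here. The deposited score of a peak is 10 times its −log10 q-value, rounded down by the caller, and gave the stricter threshold. The fold enrichment (a ratio of summit to local background) and the −log10 p-value were used as deposited by the authors. The number of reads per list was unknown, and median pileups at Rad21 and Med1 summits were 50 and 20 reads.

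Overlaps of at least 1 bp, Wilson 95% intervals for shares and Newcombe 95% intervals for differences were computed in Python 3.11.15 with NumPy 2.4.6, pandas 2.3.3 and SciPy 1.17.1. A difference was taken as larger than counting error where its interval left out 0. Neighbouring peaks are not independent, so that these intervals may be too narrow, and no test over replicates was possible. Pileup and background were solved from fold and p-value to within 0.01 in −log10 p. Sequence was read with pysam 0.24.0, and plots were drawn with Matplotlib 3.10.9. Overlaps were checked on simulated data against bedtools 2.31.1. Start sites came from GENCODE release 44. The oncogene table supplied with the study has 618 symbols, more than its text counts, of which 612 matched a coding gene, 7 of them by an older symbol.

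Regions were named as the 6 highest of each class by the lower percentile of their folds, with a gene's nearest start. The 5 genes with the most distal joint regions without CTCF, up to 4 highest-ranked members of each gene list and 5 genes of the study were named as well. A promoter region, a gene near distal regions and a sequence that met these rules are not reported here. Other list members, the genes with most CTCF regions and the sequences were chosen after their values were seen. The members and lists were chosen with earlier results of these data known. Alternatives covered overlap rules, −log10 q, list length, start sites, CTCF assignment and bins without start sites.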

Additional observations from a re-analysis of the deposited data

Results flagged for a closer look

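Several differences between strata exceeded their own counting intervals. The excess of Rad21 overlap at Med1 peaks with CTCF over those without CTCF was 17.8 percentage points (15.1 to 20.5) larger at distal sites than at promoters. The joint-minus-alone difference in Jun overlap at distal Med1 peaks was 36.0 points (31.2 to 41.0) higher without CTCF than with it, and at distal Rad21 peaks it was −38.2 points (−42.7 to −33.5), that is lower without CTCF.

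Peaks outside the comparisons lay in the 59 of 2084 bins of 1 Mb that hold no start site. Med1 had 1126 peaks there (6.07% of its peaks on these chromosomes), with a median fold enrichment of 6.06, and 982 of them (87.2%) overlapped a Med1 peak of A549. Rad21 had 5 peaks there (0.0195%).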

How the results depend on the processing

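Of 126 values under an alternative, 102 stayed as they were, which for a difference means its direction and call, for a share the main interval and for the gene count a factor of 1.5, and none of the differences gained a call. With 50% reciprocal overlap 22.8% of Rad21 and 33.7% of Med1 peaks were joint, 80.9% of joint regions lay at promoters, 58.0% lacked CTCF, 4319 genes had a joint promoter, and the promoter difference of Rad21 by CTCF was 1.40 points. With summits within 200 bp the joint shares were 31.4% and 46.3%, and 77.8% of regions lay at promoters. At −log10 q of at least 5 they were 41.4% and 61.4%, with 80.2% at promoters and 56.3% without CTCF. With lists of equal length they were 52.8% and 50.7%, with 81.8% at promoters. With gene-free bins kept, 54.8% of Med1 peaks were joint, and the Jun difference of joint and single distal Med1 peaks turned to 3.25 points. It was −1.54 points without distal H3K4me3 peaks, an alternative chosen after seeing the data. With starts within 3 kb 84.7% of joint regions were promoters, with coding starts only 71.7%, and with peak edges 80.0%. With CTCF summits within 500 bp 56.6% of regions lacked CTCF, and the promoter difference of Med1 by CTCF turned to −1.38 points. The cause of these shifts was not tested. Also chosen after seeing the data were Rad21 pileups of at least 50 reads, which gave a distal difference by CTCF of 21.2 points and a promoter one of 4.24 points, and readouts within 250 bp of summits, which ended no call. No paired analysis was possible because the lists pool the replicates, which also kept single replicates from being left out. Without read totals, how depth limits the lists is unknown.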

Other observations

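The other words searched at the summits were rare, except for the SP/KLF word. The cAMP response element TGACGTCA lay within 50 bp of 0.362% of all Rad21 and 0.672% of all Med1 summits, the NRF1 word of 0.280% and 0.287%, and the YY1 word AAGATGGCG of 0.327% and 0.511%. The SP/KLF word GGGCGGGG lay at 9.43% of the Rad21 and 9.11% of the Med1 summits, against 0.730% and 0.809% in windows 2 kb to each side. At promoters without CTCF it lay at 21.1% of the joint and 16.6% of the single Rad21 summits. For Med1 summits there the shares were 17.3% and 4.74%. GC content also differed between these Med1 classes, and its part was not tested.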
